A study of Mus musculus with 20 samples.

Results

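Endothelial cells of E0771 tumours grown in mice labelled CD4KO, described as deficient in CD4 T cells, were compared with those grown in mice labelled CD8KO, across all expressed genes. The comparison takes the 3 libraries titled CD4KO and the 3 titled CD8KO, 6 of the 20 libraries in the series, with the labels as given. E0771 is a mouse mammary tumour line. All hosts were C57BL/6J mice that received 500000 E0771 cells in the mammary fat pad. Tumours were taken at 500 mm3, and CD31-positive cells were enriched on microbeads and sorted. The submitters' design text counts CD8KO with the CD4-competent hosts and CD4KO with the CD4-deficient hosts. The alleles behind the 2 names, the age and sex of the mice, and whether each library came from its own animal are not given in the sources used here. The 4 wild-type (WT) libraries serve below as the unaltered background, and the TCRKO, Tie2Cre and Tie2Cre_H2Abf (Tie2Cre;H2Ab flox) libraries enter the model that gives every standard error and p, and their levels are shown only where a sum is set across the series.

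CD4 T cells recognise peptides on MHC class II molecules and CD8 T cells recognise peptides on MHC class I. Activated cells of both kinds, and natural killer cells, secrete interferon-gamma. Promoters of interferon-inducible genes often hold short elements called GAS and ISRE, and the genes induced include guanylate-binding proteins, immunity-related GTPases, antigen presentation genes and the chemokine CXCL9. Endothelial cells respond to interferon-gamma in this way, and macrophages, which can lie next to vessels, do so too.

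Nearly all interferon-gamma response genes, MHC class II genes and macrophage markers were higher in estimate in the CD4KO-labelled libraries, and no single gene passed the test. Of 28 tested interferon-gamma response genes, 27 had a higher estimate, where 52.9% of all 14875 tested genes did. Their median log2 difference was 0.99, and that of all genes 0.07. Promoter stretches of 4 interferon-inducible GTPase genes are shown because they hold matches to one or both of the elements that interferon signalling uses. They are the 170 bases before the annotated start, 5′ to 3′ on the gene's strand, from RefSeq (GRCm38.p6), with matches to the GAS letters TTCNNNGAA or the ISRE letters GAAANNGAAA, on either strand, in capitals. The regions are chr3:142496764-142496933 on the plus strand (Gbp5), chr3:142620493-142620662 on the plus strand (Gbp2), chr11:48992247-48992416 on the minus strand (Tgtp1) and chr11:58183673-58183842 on the plus strand (Gm12250, also called Irgb10). Gm12250 was not on the interferon-gamma list. The counted Gm12250 gene is annotated as a processed pseudogene at chr11:58187739-58189012, so the printed stretch ends before the counted span. The stretches of Gbp5 and Tgtp1 lie inside their counted spans, chr3:142493978-142522344 and chr11:48985327-48994172. The stretch of Gbp2 runs past the start of its counted span at chr3:142620602.
Gbp5: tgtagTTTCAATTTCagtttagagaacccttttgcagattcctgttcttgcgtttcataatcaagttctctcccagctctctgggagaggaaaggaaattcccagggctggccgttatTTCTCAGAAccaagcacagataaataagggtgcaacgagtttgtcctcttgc
Gbp2: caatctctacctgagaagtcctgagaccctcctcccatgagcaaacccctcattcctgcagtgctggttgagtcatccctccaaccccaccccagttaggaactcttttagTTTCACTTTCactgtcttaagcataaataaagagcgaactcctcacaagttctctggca
Tgtp1: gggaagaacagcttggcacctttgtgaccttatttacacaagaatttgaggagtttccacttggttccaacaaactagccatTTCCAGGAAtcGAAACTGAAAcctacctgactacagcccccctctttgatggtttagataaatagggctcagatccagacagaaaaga
Gm12250: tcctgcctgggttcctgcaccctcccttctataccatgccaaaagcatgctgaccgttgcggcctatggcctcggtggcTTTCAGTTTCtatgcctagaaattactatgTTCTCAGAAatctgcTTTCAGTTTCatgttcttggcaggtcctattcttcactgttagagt
No 2 matches overlap within a stretch. The search over the whole 300-base window of each promoter matched 19 genes of the interferon-gamma list, with 22 promoters, and 15 of these promoters (68.2%) held a match to either element. Over all 32851 promoters in the table the share was 11.3%, with 8.3% for GAS and 3.44% for ISRE. In the macrophage list 2 of 14 promoters (14.3%) held a match. Of the named genes with a higher estimate in the CD4KO-labelled libraries, 3 of 10 promoters (30%) held a match. Of those with a lower estimate, 1 of 8 (12.5%) did. The interferon-gamma list was made of genes known to respond to interferon, so its share says nothing about the 2 labels. A match describes letters in the window, not a bound site.

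Depth differed between libraries. Total expected counts ran from 3320257 to 10117155 over the 6 libraries, and 3 counts in a library equal 0.128 to 0.655 CPM (counts scaled to a common library total, corrected for composition by TMM factors). Abundant RNA classes took 62.7% to 80.3% of the counts in 5 libraries and 17.2% in CD8KO_9752, so that CD8KO_9752 was the most deeply covered for protein-coding genes, at 79.8% of its counts against 18.5% to 36.4% in the others. CD4KO_9768 stood apart from all others: its rank correlation with the remaining 5 was 0.581 to 0.603, where the other pairs reached 0.828 to 0.891, and on the first principal component (51.2% of the variance) it lay at -214.5 where the others lay at 32.3 to 53.9. It also held 2099 CPM of olfactory receptor RNA, scaled to protein-coding counts alone, against 43.5 to 339 in the other 5. Estimates of list medians and named genes are therefore also given without CD4KO_9768, called the 5-library estimate below. Same-group pairs differed by a chi-square per degree of freedom of 60.8 to 544, far above sampling noise, so that no library was a copy of another. Of the WT libraries, WT_9771 had 47.1% of its counts in satellite repeat genes and 9.92% in protein-coding genes. In WT_9771, 3 counts equal 2.46 CPM, and olfactory receptor RNA was 9745 CPM on the same scale as above. The WT ranges and medians below include WT_9771.

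Cd8a RNA was found where the label says CD8KO, and Cd4 RNA where it says CD4KO, so the libraries are called by their labels throughout. Cd8a, the alpha chain of the CD8 co-receptor, had 48.7, 39.0 and 69.8 CPM in CD8KO_9751, CD8KO_9752 and CD8KO_9753. In CD4KO_9768, CD4KO_9769 and CD4KO_9770 it had 0, 2.94 and 0 CPM. The difference was -5.70 ± 1.70 (log2, SE, n = 3 and 3; edgeR adjusted p = 0.833; 5-library estimate -5.19), and the groups did not overlap. The 14 libraries of the other backgrounds, WT among them, had 0 to 2.46 CPM. Cd8b1, its partner chain, held 5 counts in the CD4KO-labelled libraries and 0 in the CD8KO-labelled ones. Gene-level counts do not say which exons the Cd8a reads came from, so these values do not tell whether the deleted part was read. Cd4 was low everywhere, with 15.7, 4.22 and 7.55 CPM in the CD4KO-labelled libraries and 4.33, 3.33 and 0 CPM in the CD8KO-labelled ones (1.83 ± 1.52, adjusted p = 0.978; 5-library estimate 1.2), so it was not absent where the label says CD4KO. T cell receptor constant chains were near 0: Trac had 15 counts in the CD4KO-labelled libraries and 6 in the CD8KO-labelled ones. Cd3e had counts of 0, 11 and 10 against 0, 9 and 0. Pecam1, the CD31 gene, stood at 610 to 1285 CPM and 1011 to 1268 CPM (-0.30 ± 0.37, adjusted p = 1; 5-library estimate -0.08). In bulk libraries fewer cells of a type and less RNA per cell cannot be told apart.

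No gene passed the threshold of 0.05 on the adjusted p in edgeR (0 of 14875, 0%). At an unadjusted p under 0.05 there were 845 genes (5.68%), 660 higher (4.44%) and 185 lower (1.24%) in the CD4KO-labelled libraries. Where all 3 libraries of one label lay above all 3 of the other, 586 genes (3.94%) were higher and 673 (4.52%) lower. DESeq2 called 19 genes higher (0.128%) and 0 lower, but 17 of the 19 had over 60% of their summed CPM in CD4KO_9768. The other two were Gbp5 and Pfkfb3. limma-voom called 0. Without a filter on low counts edgeR called 2 genes, Cd8a (-5.73, adjusted p = 0.0120) and Stra6l (4.70, adjusted p = 0.0476). Without CD4KO_9768 the count at an unadjusted p under 0.05 was 370 of 17193 genes tested there. Among the 4273 genes with a mean of at least 10 CPM, 123 (2.88%) had an unadjusted p under 0.05, 96 higher (2.25%) and 27 lower (0.632%).

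**Figure D1:**
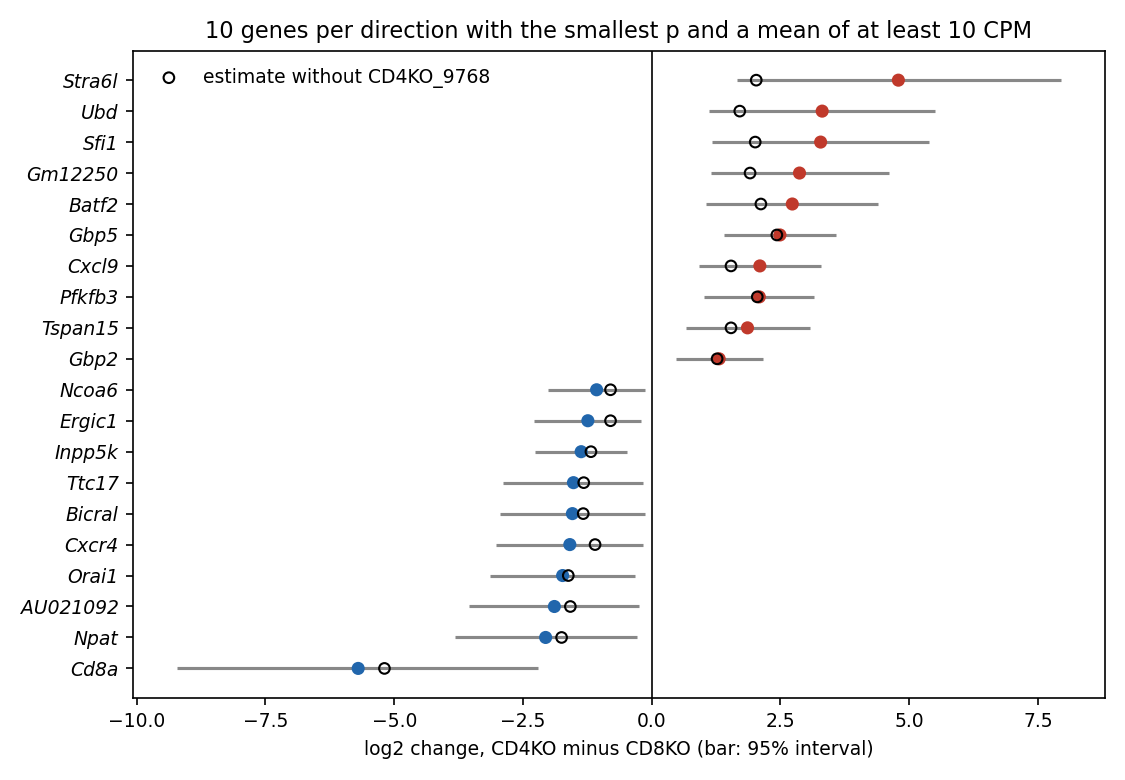
log2 difference with its 95% interval for the 10 genes per direction that had the smallest p among those with a mean of at least 10 CPM, and the estimate without CD4KO_9768 as open circles. The interval of every gene excludes 0 and no adjusted p is below 0.833. Leaving out CD4KO_9768 brings Stra6l from 4.79 to 2.03, while Gbp5 stays at 2.43.

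Guanylate-binding proteins, large GTPases that act on pathogen vacuoles and inflammasomes, were higher in estimate in all 10 tested members of the 12 annotated (median log2 difference 1.28, against 0.07 over all genes; 4 at an unadjusted p under 0.05, 5 without overlap; 5-library median 1.32). Over all genes 4.44% were higher at that p and 3.94% were higher without overlap. Gbp5, which promotes inflammasome assembly, had 98.7, 111 and 63.7 CPM in CD4KO_9768, CD4KO_9769 and CD4KO_9770 and 24.5, 9.01 and 15.2 CPM in CD8KO_9751, CD8KO_9752 and CD8KO_9753. All 3 CD4KO-labelled libraries were above all 3 CD8KO-labelled ones, and WT libraries ran from 21.2 to 67.1 CPM with a median of 49.2. The difference was 2.49 ± 0.52 (95% interval 1.41 to 3.57, edgeR adjusted p = 0.833; DESeq2 adjusted p = 0.000101) and 2.43 without CD4KO_9768. Gbp2 had 277, 243 and 265 CPM against 103, 133 and 79.5 CPM (1.31 ± 0.41, adjusted p = 0.833). Gbp4 had 157, 167 and 144 CPM against 54.5, 51.2 and 91.0 CPM (1.25 ± 0.42, adjusted p = 0.833). Neither gene overlapped between labels, their WT medians were 212 and 137 CPM, and without CD4KO_9768 the differences were 1.27 and 1.25. Gbp10 differed by 3.27 ± 1.15 (5-library estimate 3.53) at 8.52 to 22.4 CPM against 0.348 to 2.65 CPM. Gbp3 differed by 0.62 ± 0.47 without overlap. Gbp7 (0.52 ± 0.41), Gbp9 (0.21 ± 0.48) and Gbp6 (0.99 ± 0.57) overlapped. The 5-library estimates of Gbp3, Gbp7, Gbp9 and Gbp6 were 0.65, 0.45, 0.56 and 1.38. RSEM shares reads between near-identical family members, so single members of this family and the next are uncertain.

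Immunity-related GTPases, which attack the vacuoles of intracellular parasites, had estimates above 0 in 9 of 12 members, all of them tested, where 52.9% of all genes did, with a median of 0.52 and a range from -0.50 to 2.87. No member passed the test, 4 were higher at an unadjusted p under 0.05 and 5 were higher without overlap. Over all genes these shares were 4.44% and 3.94%. The 5-library median of the family was 0.63. Tgtp1 had 182, 159 and 88.1 CPM against 44.8, 49.7 and 82.8 CPM (1.28 ± 0.44, adjusted p = 0.833). Its neighbour copy Tgtp2 had 119, 179 and 97.8 CPM against 53.1, 63.1 and 81.1 CPM (1.00 ± 0.41, adjusted p = 0.833). Both were free of overlap, both differed by 1.07 without CD4KO_9768, and CD4KO_9770 and CD8KO_9753 were the closest libraries. Gm12250 had 45.4, 11.6 and 11.8 CPM against 2.31, 3.63 and 3.37 CPM (2.87 ± 0.84, adjusted p = 0.833). Its high value came from CD4KO_9768, and without that library the difference was 1.91. Iigp1 (0.93 ± 0.41) and Igtp (0.65 ± 0.46) did not overlap either. Irgm1, which regulates the family (0.53 ± 0.39), and Irgm2 (0.46 ± 0.46) overlapped. The 5-library estimates of Iigp1, Igtp, Irgm1 and Irgm2 were 0.66, 0.71, 0.65 and 0.52.

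Across the whole interferon-gamma list, 28 of 29 members were tested and 12 had an unadjusted p under 0.05, all higher, with the same number not overlapping. Over all genes 4.44% were higher at that p and 3.94% were higher without overlap. The median without CD4KO_9768 was 1.04 (27 of 28 higher, 11 at an unadjusted p under 0.05, against 370 of all 17193 genes tested there). Over all 16 alternative settings the median ran from 0.84 to 1.14. Summed CPM of the list was 2554, 2513 and 2212 in the CD4KO-labelled libraries and 1199, 1232 and 1359 in the CD8KO-labelled ones, a ratio of means of 1.92. The 4 WT libraries held 1606 to 2534 with a median of 1852, so the CD8KO-labelled sums lay below every WT library and 1 CD4KO-labelled library above them all. The lowest WT sum was in the satellite-rich WT_9771, and the next was 1675 in WT_9772. The sums were 817 to 1056 in TCRKO, 1433 to 1819 in Tie2Cre and 1904 to 3704 in Tie2Cre_H2Abf. Ido1, an enzyme that breaks down tryptophan, had 34 counts in the CD4KO-labelled libraries and 0 in the CD8KO-labelled ones (edgeR adjusted p = 0.833). Set against a floor of 3 counts over the group, Ido1 was 17.1-fold higher. That fold is from pooled counts and leaves out the spread between libraries. Batf2 and Ubd were not on the list and were named for their small p among all genes. Batf2, a transcription factor of interferon responses, had 53.9, 24.3 and 17.4 CPM against 3.89, 3.54 and 6.96 CPM (2.73 ± 0.81, adjusted p = 0.833; 2.12 without CD4KO_9768). Ubd, a ubiquitin-like modifier, had 58.1, 10.6 and 5.62 CPM against 1.15, 0.982 and 5.34 CPM (3.31 ± 1.06, adjusted p = 0.833), and the estimate without CD4KO_9768 was 1.71.

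**Figure D2:**
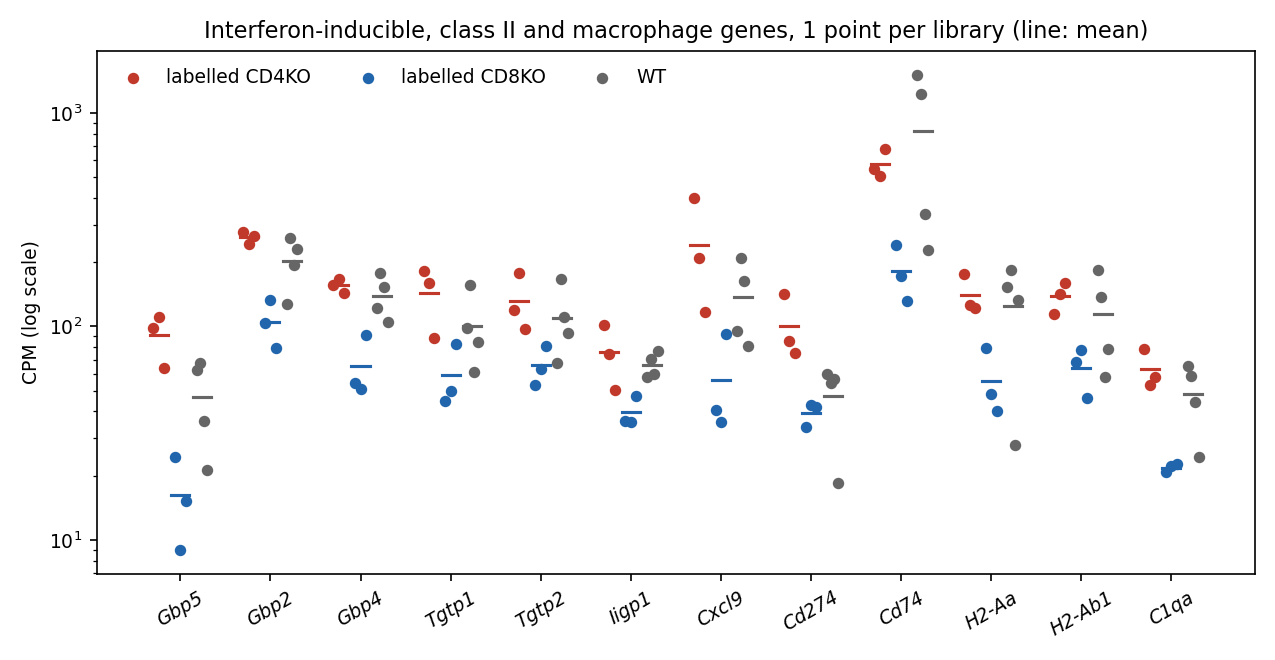
CPM on a log axis for 12 genes in the 3 libraries labelled CD4KO, the 3 labelled CD8KO and the 4 WT libraries, 1 point per library with the mean as a line. For Gbp5 the CD4KO-labelled libraries sit at 63.7 to 111 CPM and the CD8KO-labelled ones at 9.01 to 24.5 CPM, and none of the 12 genes overlaps between these labels. The 12 were chosen with earlier results known, and 3.94% of all tested genes were higher without overlap.

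Type I interferon genes lay near the median of all genes. Of 20 tested members 12 had a higher estimate, with a median of 0.08, and without CD4KO_9768 the median was -0.08. Oas3, which makes the activator of RNase L, had 204, 62.8 and 97.3 CPM against 54.5, 46.9 and 36.7 CPM (1.40 ± 0.55, adjusted p = 0.833), and 0.80 without CD4KO_9768. Oas1a, of the same enzyme family, differed by -0.74 ± 0.53 and Ifit3, an inhibitor of viral translation, by -0.58 ± 0.50. Both overlapped between labels, with 5-library estimates of -0.57 and -0.49. The difference between the 2 lists was not tested.

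MHC class II genes, which present antigen to CD4 T cells, were higher in estimate in 7 of 7 tested members of 8, with a median of 1.34 (1.2 without CD4KO_9768; 1.17 to 1.66 over the alternatives). Of these 5 had an unadjusted p under 0.05, 1 without CD4KO_9768, and 5 did not overlap. Over all genes 4.44% were higher at that p and 3.94% were higher without overlap, with all 6 libraries. Cd74, the invariant chain, had 545, 509 and 679 CPM against 240, 172 and 132 CPM (1.67 ± 0.56, adjusted p = 0.833). The 2 labels were well apart, and the WT libraries covered a range wider than either, from 227 to 1511 CPM. WT_9748 and WT_9749 had 1511 and 1223 CPM, and WT_9771 and WT_9772 had 337 and 227 CPM. H2-Aa, the class II alpha chain, had 175, 126 and 121 CPM against 79.0, 48.1 and 40.2 CPM (1.34 ± 0.55, adjusted p = 0.833). H2-Ab1, the beta chain, had 114, 142 and 160 CPM against 68.5, 77.6 and 46.2 CPM (1.11 ± 0.58, adjusted p = 0.833). Neither chain overlapped, and without CD4KO_9768 Cd74, H2-Aa and H2-Ab1 differed by 1.72, 1.15 and 1.24. H2-DMa, which loads peptide, differed by 1.74 ± 0.76 (5-library estimate 1.49) without overlap. Ciita, the master regulator of class II genes, had 45.0, 2.56 and 19.3 CPM against 1.73, 3.76 and 1.51 CPM (3.23 ± 1.25, adjusted p = 0.833), and CD4KO_9769 lay within the other label. Its 5-library estimate was 2.22, and limma-voom gave 1.52. The summed level of the list was 1020, 869 and 1052 CPM against 440, 335 and 266 CPM, with WT at 474 to 2002.

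**Figure D3:**
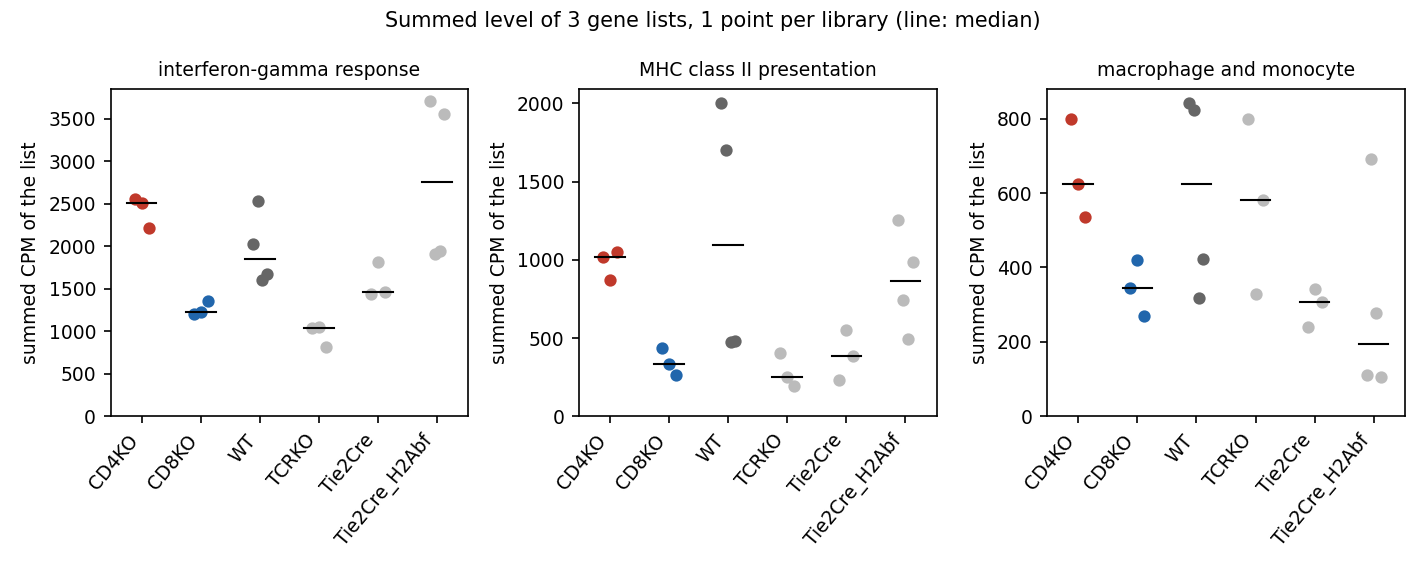
Summed CPM of the interferon-gamma, MHC class II and macrophage lists in all 20 libraries by background, 1 point per library with the group median as a line. In each panel the 3 libraries labelled CD4KO lie above the 3 labelled CD8KO.

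MHC class I genes, which present antigen to CD8 T cells, had estimates in the same direction: 12 of 14 tested members were higher in estimate, 0 had an unadjusted p under 0.05 and 3 did not overlap, with a median of 0.50 (0.66 without CD4KO_9768). Over all genes 4.44% were higher at that p and 3.94% were higher without overlap. H2-Q7 had 287, 258 and 302 CPM against 213, 201 and 167 CPM (0.54 ± 0.35, adjusted p = 0.863; 5-library estimate 0.53). Nlrc5, the class I transactivator, had 137, 60.01 and 83.7 CPM against 58.5, 47.6 and 34.6 CPM (1.00 ± 0.55, adjusted p = 0.833; 0.62 without CD4KO_9768). In both the labels did not overlap. Psmb9, an immunoproteasome subunit, differed by 1.32 ± 0.91 (5-library estimate 0.92). H2-T23, a nonclassical molecule that engages natural killer receptors, differed by 1.12 ± 0.68 (5-library estimate 0.88). Psmb9 and Tap1 are also on the interferon-gamma list. So are Ciita of the class II list and Cxcl9 of the chemokine list below, so these lists are not independent of each other.

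In the endothelial chemokine list, 11 of 13 tested members of 15 were higher in estimate, with a median of 0.55. Without CD4KO_9768, 7 were higher and the median was 0.19. Which cells in these bulk libraries held this RNA was not tested. Cxcl9, which draws CXCR3-bearing T cells, had 398, 210 and 117 CPM against 40.8, 35.9 and 92.3 CPM (2.10 ± 0.57, adjusted p = 0.833). The labels did not overlap, and without CD4KO_9768 the difference was 1.54. Cxcl12, the ligand of CXCR4, had 209, 314 and 230 CPM against 206, 106 and 120 CPM (0.80 ± 0.57, adjusted p = 0.911; 5-library estimate 0.92). Ccl21a, a ligand of CCR7, had 1.31, 3.97 and 1.18 CPM against 2.45, 17.9 and 33.5 CPM (-3.05 ± 1.60, adjusted p = 0.833; 5-library estimate -2.81), overlapping in the lowest library. RNA of near-identical Ccl21 copies may be shared between them by the counting.

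Checkpoint genes were mixed, with 7 of 13 tested estimates above 0 and a median of 0.47 (5-library median 0.29). Cd274, the gene of the T cell inhibitory ligand PD-L1, had 142, 85.5 and 74.9 CPM against 34.0, 42.7 and 41.8 CPM (1.35 ± 0.50, adjusted p = 0.833; 1.02 without CD4KO_9768). It did not overlap, and WT libraries had 18.6 to 60.1 CPM. Entpd1, the CD39 ectoenzyme that degrades ATP, had 211, 267 and 320 CPM against 402, 414 and 353 CPM (-0.55 ± 0.40, adjusted p = 0.921; 5-library estimate -0.40). Cd276 had 1.09, 61.0 and 40.1 CPM against 77.9, 80.6 and 73.2 CPM (-1.18 ± 0.80, adjusted p = 0.894; 5-library estimate -0.61), and its lowest value was in CD4KO_9768. Both lay lower in every CD4KO-labelled library.

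Leukocyte adhesion genes had a median of -0.25 (5-library median -0.08), with 5 of 15 estimates above 0. Vcam1, which binds integrin alpha4 on leukocytes, had 44.3, 46.6 and 86.1 CPM against 30.1, 33.1 and 15.8 CPM (1.16 ± 0.55, adjusted p = 0.833). It did not overlap, its estimate was 1.33 without CD4KO_9768, and WT libraries had 55.7 to 101 CPM. Glycam1, a ligand of L-selectin found on high endothelial venules, had 33, 39 and 0 counts against 0 in all 3 CD8KO-labelled libraries (edgeR adjusted p = 0.833). Set against 3 counts over the group, Glycam1 was 36.1-fold higher in pooled counts, which leave out the spread between libraries. Its absence from CD4KO_9770 means the labels overlap at 0. In the NF-kappaB list 12 of 18 estimates were above 0 (median 0.28, 5-library median 0.18). Nfkb2, a subunit of the factor, had 24.5, 20.99 and 98.9 CPM against 24.2, 23.7 and 13.8 CPM (1.23 ± 0.66), with the high value in CD4KO_9770 alone and an estimate of 0.13 without that library. Bcl3 differed by -1.57 ± 0.78 and Relb by -1.06 ± 0.76, with 5-library estimates of -1.19 and -1.16.

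**Figure D4:**
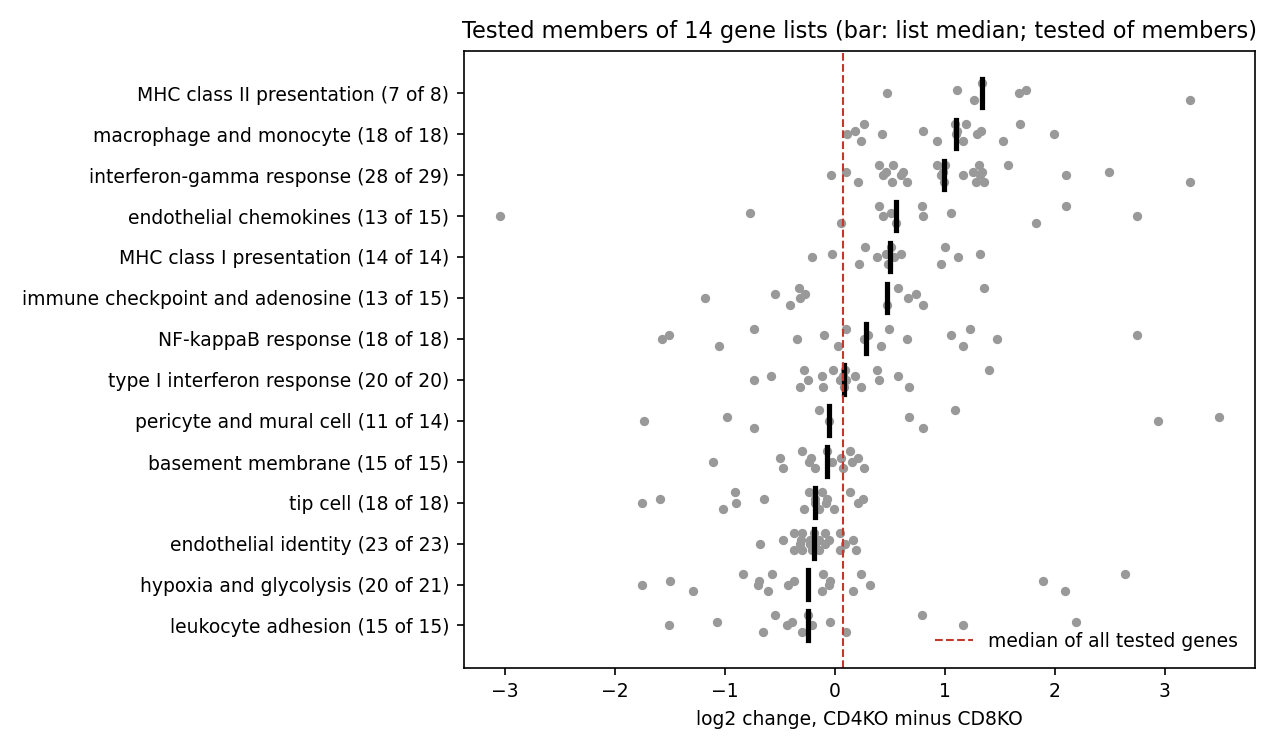
log2 difference of each tested member of 14 gene lists, with the list median as a bar and the median of all tested genes as a dashed line; 4 genes with 3 counts or fewer in a group are not drawn. The MHC class II, macrophage and interferon-gamma lists lie mostly to the right, at medians of 1.34, 1.10 and 0.99.

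Markers of macrophages and monocytes were higher in estimate in the same libraries. All 18 tested members of 18 had a higher estimate in the CD4KO-labelled libraries, 3 at an unadjusted p under 0.05 and 5 without overlap, with a median of 1.10, and 15 of 18, 1 of them at an unadjusted p under 0.05, with a median of 0.78 without CD4KO_9768. Over all genes, with all 6 libraries, 4.44% were higher at that p and 3.94% were higher without overlap. The summed level was 799, 624 and 536 CPM against 344, 421 and 270 CPM, with WT at 319 to 843 and a ratio of means of 1.90. WT_9748 and WT_9749 held 843 and 824 CPM, and WT_9771 and WT_9772 held 319 and 423 CPM. C1qa, of the complement C1q complex, had 78.4, 53.2 and 58.0 CPM against 20.8, 22.2 and 22.6 CPM (1.53 ± 0.62, adjusted p = 0.833). C1qc had 62.2, 78.3 and 37.1 CPM against 17.4, 22.5 and 15.4 CPM (1.68 ± 0.63, adjusted p = 0.833). Cd68 had 89.5, 66.4 and 32.0 CPM against 28.8, 29.2 and 18.7 CPM (1.29 ± 0.65, adjusted p = 0.833). None of these overlapped, and without CD4KO_9768 they differed by 1.35, 1.64 and 0.94. Tyrobp, an adaptor of myeloid receptors, had 62.5, 16.5 and 4.66 CPM against 3.32, 6.06 and 11.5 CPM (1.99 ± 0.90) and overlapped, with an estimate of 0.60 without CD4KO_9768. Macrophages also express class II and interferon-gamma response genes, and the part of the macrophage RNA in those differences was not tested. The macrophage sum was 329 to 798 CPM in TCRKO, 241.1 to 342.5 CPM in Tie2Cre and 104.9 to 692 CPM in Tie2Cre_H2Abf. The interferon-gamma sum was 817 to 1056 CPM, 1433 to 1819 CPM and 1904 to 3704 CPM in the same order.

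Markers of other cell types were mostly low. T and natural killer markers summed to 8.95, 14.3 and 15.0 CPM against 4.90, 10.2 and 2.09 CPM, with 4 of 19 tested and 2 at 0 in all 6 libraries. That list holds none of the host genes Cd4, Cd8a and Cd8b1, and with them added the sums were 25.1, 21.9 and 22.6 CPM against 58.0, 52.5 and 71.8 CPM, higher in the CD8KO-labelled libraries and mostly Cd8a there. Epithelial tumour markers summed to 3.06 to 6.14 CPM against 0.433 to 2.09 CPM. B cell markers reached 16.8 CPM in CD4KO_9768 and at most 4.61 CPM elsewhere, and neutrophil markers 94.3 CPM in CD4KO_9768 and at most 18.5 CPM elsewhere. Fibroblast markers summed to 27.5 to 60.9 CPM against 40.1 to 54.9 CPM. Dendritic cell markers summed to 46.7 to 56.8 CPM against 42.7 to 49.9 CPM, and skeletal muscle markers to under 1 CPM. The part of these cells in the differences was not tested.

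Other genes outside the interferon lists were also high in the CD4KO-labelled libraries. Pfkfb3, the glycolytic activator that drives vessel sprouting, had 121, 128 and 95.9 CPM against 37.1, 15.6 and 28.7 CPM (2.09 ± 0.52, edgeR adjusted p = 0.833; DESeq2 adjusted p = 0.0306), and 2.05 without CD4KO_9768. It did not overlap, and the WT libraries had 30.8 to 111 CPM. In its list, hypoxia and glycolysis, 6 of 20 tested estimates were above 0, with a median of -0.25 (5-library median -0.04). Gapdh had 337, 494 and 363 CPM against 566, 600 and 652 CPM (-0.61 ± 0.38, adjusted p = 0.861; 5-library estimate -0.50). Tspan15, a tetraspanin that directs the protease ADAM10, had 64.4, 29.9 and 42.4 CPM against 20.5, 11.7 and 5.46 CPM (1.86 ± 0.58, adjusted p = 0.833; 1.54 without CD4KO_9768). Sfi1, a centrosomal protein gene, had 76.9, 13.1 and 16.4 CPM against 1.15, 7.04 and 2.44 CPM (3.28 ± 1.02, adjusted p = 0.833; 2.01 without CD4KO_9768). Stra6l had 98.0, 4.73 and 5.77 CPM against 1.44, 2.31 and 0 CPM (4.79 ± 1.53, adjusted p = 0.833), most of it in CD4KO_9768, and 2.03 without it. These last 3 did not overlap between labels.

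The named genes with lower estimates in the CD4KO-labelled libraries had mixed roles. Inpp5k, an inositol phosphatase, had 9.83, 15.6 and 16.1 CPM against 42.1, 30.4 and 35.5 CPM (-1.37 ± 0.43, adjusted p = 0.833; -1.18 without CD4KO_9768). Orai1, the pore of the store-operated calcium channel, had 4.37, 7.42 and 3.85 CPM against 11.8, 19.7 and 20.4 CPM (-1.73 ± 0.69, adjusted p = 0.833; -1.62 without CD4KO_9768). The WT libraries had 2.76 to 6.57 CPM, below all 3 CD8KO-labelled libraries and below CD4KO_9769. Ergic1, a protein of the transport route from the endoplasmic reticulum to the Golgi, had 5.02, 25.2 and 25.4 CPM against 36.0, 45.9 and 50.3 CPM (-1.24 ± 0.50; -0.80 without CD4KO_9768). Ncoa6, a coactivator of nuclear receptors, differed by -1.07 ± 0.46, Ttc17 by -1.52 ± 0.66, Bicral, of a chromatin-remodelling complex, by -1.54 ± 0.68, and AU021092 by -1.89 ± 0.80, all without overlap. Their 5-library estimates were -0.80, -1.32, -1.33 and -1.58. Npat, which drives histone gene transcription, differed by -2.06 ± 0.86 (5-library estimate -1.75) and overlapped.

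Tip cell genes, which mark the leading cells of a vessel sprout, were lower in estimate in 15 of 18 tested members, with a median of -0.18. Without CD4KO_9768, 10 of 18 were higher in estimate and the median was 0.06. Apln, the apelin ligand, had 117, 183 and 220 CPM against 306, 277 and 472 CPM (-1.02 ± 0.50, adjusted p = 0.833; -0.80 without CD4KO_9768). Trp53i11 had 189, 281 and 448 CPM against 505, 685 and 525 CPM (-0.90 ± 0.44, adjusted p = 0.833; 5-library estimate -0.65). Neither overlapped. Cxcr4, the receptor of CXCL12, had 9.83, 87.0 and 61.7 CPM against 141, 84.7 and 255 CPM (-1.59 ± 0.70, adjusted p = 0.833) and overlapped in CD4KO_9769. Its estimate was -1.10 without CD4KO_9768.

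Endothelial identity genes had 18 of 23 lower estimates and a median of -0.19, with 3 lower without overlap. Over all genes 4.52% were lower without overlap. Without CD4KO_9768, 11 of 23 were higher in estimate and the median was -0.02. Emcn, endomucin, had 127, 129 and 72.3 CPM against 167, 158 and 202 CPM (-0.68 ± 0.42, adjusted p = 0.849; 5-library estimate -0.80). Eng, the TGF-beta co-receptor endoglin, had 675, 855 and 848 CPM against 1175, 1136 and 975 CPM (-0.47 ± 0.35, adjusted p = 0.929; 5-library estimate -0.36). Both lay lower in every CD4KO-labelled library. Cdh5, VE-cadherin, differed by -0.31 ± 0.36, and by -0.02 in the 5-library estimate. In the basement membrane list 6 of 15 estimates were above 0 (median -0.07, 5-library median 0.16). Fn1, fibronectin, had 178, 141 and 400 CPM against 575, 498 and 478 CPM (-1.11 ± 0.53, adjusted p = 0.833; -0.93 without CD4KO_9768), and Sparc, a matricellular protein, 1617, 1702 and 1328 CPM against 2108, 1906 and 2543 CPM (-0.50 ± 0.35, adjusted p = 0.911; 5-library estimate -0.53). Neither overlapped. The WT libraries had 227 to 715 CPM of Fn1 and 584 to 1912 CPM of Sparc. In the pericyte and mural cell list 5 of 11 tested estimates were above 0 (median -0.06, 5-library median 0.17). Kcnj8, a potassium channel of pericytes, had 0 counts in all 3 CD4KO-labelled libraries and 6, 93 and 45 counts in the CD8KO-labelled ones (edgeR adjusted p = 0.833). With 3 counts over the group in place of 0, Kcnj8 was 31.9-fold lower in pooled counts, which leave out the spread between libraries. Acta2, smooth muscle actin, had 1.09, 6.78 and 7.33 CPM against 24.2, 9.95 and 17.1 CPM (-1.74 ± 1.24, adjusted p = 0.914; 5-library estimate -1.27).

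**Figure D5:**
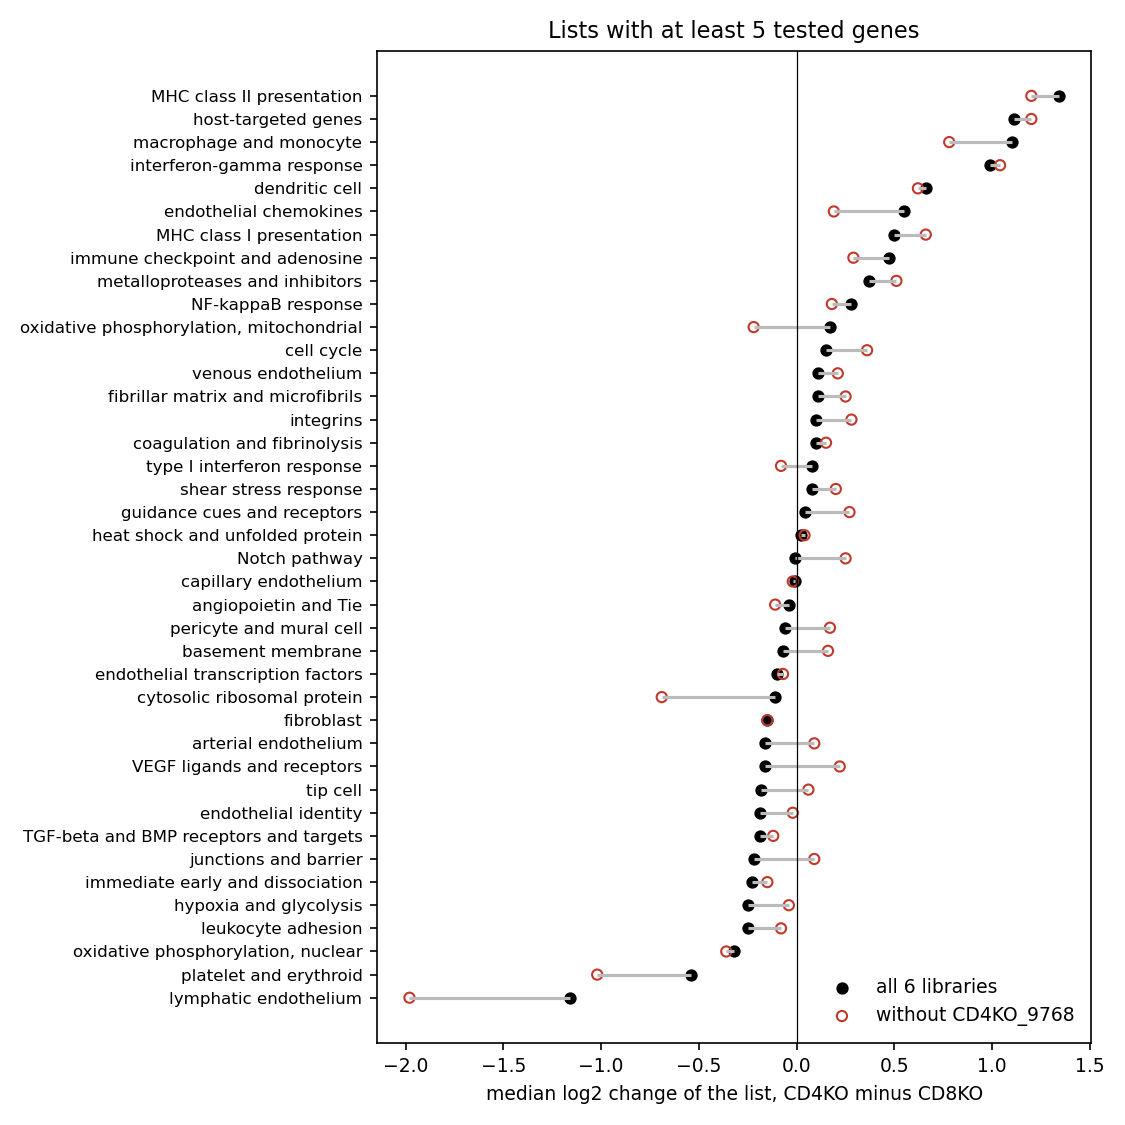
Median log2 difference of the 40 lists with at least 5 tested genes, with all 6 libraries (filled) and without CD4KO_9768 (open). The interferon-gamma and MHC class II lists are at 1.04 and 1.2 without it, 9 lists change sign, and the cytosolic ribosomal protein list goes from -0.11 to -0.69.

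Values of some further lists follow. Cytosolic ribosomal protein genes had 11 of 28 estimates above 0, and 0 of 28 without CD4KO_9768, with summed levels of 3793, 2172 and 1555 CPM against 1626, 3819 and 2964 CPM, which overlap. Lymphatic endothelial genes had 1 of 8 estimates above 0 and a median of -1.16 (-1.98 without CD4KO_9768), at summed levels of 70.5 to 169 CPM against 161 to 226 CPM. That median was below 0 in all 16 alternatives, from -1.98 to -0.34. Cell cycle genes had 14 of 25 above 0 (median 0.15, 5-library median 0.36). Nuclear genes of oxidative phosphorylation had 5 of 18 above 0 (median -0.32, 5-library median -0.36).

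Genes next to the 2 host loci were counted as well. Within 5 Mb of Cd4 (GRCm38 chr6:124864692-124888221, minus strand) 120 genes were tested, 69 higher and 48 lower in estimate and the rest at 0, with 7 and 1 at an unadjusted p under 0.05 (6.67%, against 5.68% over all genes), with a median of 0.22 and a 5-library median of 0.00. Apobec1, an RNA-editing cytidine deaminase, at -2287 kb from Cd4, had the smallest p, with 43.7, 32.3 and 21.6 CPM against 5.19, 13.6 and 4.99 CPM (2.02 ± 0.69, adjusted p = 0.833; 5-library estimate 1.75), without overlap. Within 5 Mb of Cd8a (chr6:71373427-71379173, plus strand) 52 genes were tested, 26 higher and 26 lower in estimate, with 1 and 1 at an unadjusted p under 0.05 (3.85%), with a median of -0.00 and a 5-library median of -0.19.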

How the data were processed

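MATQ amplification of total RNA from sorted CD31-positive cells was followed by Nextera XT library construction, per the labels' protocols, and strand was not marked. The submitters' processing notes name bcl2fastq 2.17, STAR, RSEM 1.2.28, DESeq2 and GRCm38. No annotation release is given in the sources used here. RSEM expected counts, TPM and effective length for 46983 gene IDs were deposited by the authors for each library, and GENCODE M21 gave 46488 of the IDs a symbol. The deposited expected counts, 4.45% of them not whole, were rounded. The authors' TPM values were not tested, and their effective length served only as an offset alternative.

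edgeR 4.0.16 (R 4.3.3) was run on all 20 libraries in a 6-group model with TMM, filterByExpr and robust quasi-likelihood, and CD8KO was subtracted from CD4KO. Adjusted p-values are Benjamini-Hochberg over 14875 genes, and the biological coefficient of variation was 0.995. Alternatives used DESeq2 1.42.0, limma 3.58.1, other filters and scalings, and each of the 6 libraries left out in turn. Named by rule were the host genes, the 10 genes per direction of smallest p whose mean reached 10 CPM, and in each described list the 4 members of smallest p whose mean reached 1 CPM. Other members of the 2 GTPase families, Ido1 and Apobec1 were named after their values were seen. Nothing states that libraries came from separate animals, and p-values then measure only spread between libraries. The members and lists were chosen with earlier results of these data known.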

Additional observations from a re-analysis of the deposited data

How the results depend on the processing

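Over the 16 alternatives the edgeR and limma-voom fits called 0 genes, except 2 without a filter on low counts, and DESeq2 called 19. The count at an unadjusted p under 0.05 was 845, and 342 with only the 6 libraries, 1794 without a filter, 202 with at least 5 CPM in 3 of the 6 libraries, and 214 without CD4KO_9768 and CD8KO_9752 together (an alternative chosen after seeing the data). Without WT_9771 and Tie2Cre_9501, the 2 satellite-rich libraries, the count was 1118. Leaving out 1 library gave 370 to 1426: 370 without CD4KO_9768, 1300 without CD4KO_9769, 1426 without CD4KO_9770, 567 without CD8KO_9751, 457 without CD8KO_9752 and 443 without CD8KO_9753. The cause was not tested. Of the named genes, Xaf1 (-0.09) and Ifit3 (0.10) turned direction without CD4KO_9768 and CD8KO_9752, Cxcl1 was -1.31 there, -1.17 without CD4KO_9768 and -0.50 by limma-voom, Notch3 was -0.87 without CD4KO_9769 and Vegfa -0.41 without CD4KO_9770. Over the libraries left out in turn, Cxcl1 ran from -1.17 to 3.50, Notch3 from -0.87 to 4.63 and Vegfa from -0.41 to 3.39. The interferon-gamma, MHC class I, MHC class II and macrophage medians were above 0 in all 16 alternatives. So were the dendritic cell and adipocyte medians, and the T and natural killer median in the 15 alternatives that gave one. The lymphatic endothelium, endothelial identity and endothelial transcription factor medians were below 0 in all 16. No paired analysis was possible because each library number is used once. With 3 libraries a label and this spread, a difference that misses the threshold is not shown to be absent.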
